A study of Mus musculus with 2 samples.

Results

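The genes described here are Trp53, which encodes the transcription factor p53, and 7 of its target genes, Cdkn1a, Ccng1, Mdm2, Bax, Trp53inp1, Phlda3 and Sesn2. They were picked by name and make up 8 of the 22802 genes in the count files of both samples, and all 8 were counted in each. The embryoid sample was an aggregate of Lifeact-RFPruby mouse embryonic stem (ES) cells with XTE cells, which had been reprogrammed from Gata6-H2B:Venus ES cells and which the study calls trophectoderm-like. For each aggregation 10000 ES cells and 50000 to 80000 XTE cells were seeded, kept 48 h in AggreWell plates and then 48 h in cell repellent plates. The blastocyst sample was whole B6C3F1 embryos of embryonic day 4.5. TrypLE was used to dissociate both samples, and 6000 cells of each went into 1 library of polyadenylated RNA. Every value below therefore compares 2 libraries, no p-value is given, and the 95% intervals cover counting error only.

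p53 is held low in unstressed cells because its target Mdm2 marks the protein for degradation. DNA damage and other stresses free it from Mdm2, and it then switches on genes for cell cycle arrest, repair, metabolic restraint and death. Most of that control acts on the protein, so the level of the Trp53 transcript does not give the activity of p53. In the early mouse embryo the pluripotent epiblast is known for its sensitivity to p53-driven death.

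Cells were grouped by clustering each library and naming clusters from marker genes. The clustering left out mitochondrial and ribosomal protein genes and the 118 genes of all lists used below, which cover p53, stress, hypoxia and cell cycle. In the embryoid library 3744 of 5328 kept cells (70.3%) were primitive endoderm-like (PrE-like), 108 were epiblast-like (EPI-like), 100 were fibroblast or extraembryonic mesoderm-like (FIB-like) and 1376 in 3 clusters were left unnamed. In the blastocyst library 375 cells were trophectoderm-like (TE-like), 446 PrE-like and 258 EPI-like. No embryoid cluster took the TE-like name, although XTE cells were described as trophectoderm-like. Of the unnamed clusters, 2 came closest to PrE-like but had trophectoderm markers among their leading genes, which kept them unnamed. These markers were Fgfr2 and Tspan8 in the one of 623 cells and Lgals3 in the one of 414 cells. When each cell had to take the epiblast, primitive endoderm or trophectoderm class from its own markers, 194 of 4996 embryoid cells were TE-like. That rule left no cell unnamed and had no FIB-like class. Among the 10 leading genes of the 7 embryoid PrE-like clusters, markers of primitive endoderm appeared in 1 cluster only, with Cubn and Amn. The embryoid cells were shallower, with a median of 4768.5 UMIs (unique molecular identifiers, counts of captured transcripts) against 9278 UMIs in blastocyst cells, and 9 cell barcodes occurred in both libraries. Levels are CPM, the UMIs of a gene in a class over all UMIs of that class on the usual CPM scale. CPM are not corrected for transcript length and are compared between classes, never between genes.

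p53 binds a response element built from repeats of a decamer motif. RefSeq promoter windows (GRCm38.p6, from 250 bases before to 50 bases after a start site) were found for 7 of the 8 genes. An exact p53 decamer, which reads the same on both strands, lay in 5 of the 8 windows of these genes, against 8.36% of all 32851 windows. Cdkn1a has 2 windows. The upstream one held 2 decamers, the first at -73 from its start site, while 0.359% of all windows held at least 2. The windows of Phlda3, Sesn2 and the second start site of Cdkn1a held none, which says only that these letters are absent from 300 bases. The windows of 4 genes are shown because their transcripts are set side by side below: the first 3 were at least 2-fold higher in embryoid than in blastocyst PrE-like cells, and Bax was not. They are chr17:29090729-29091028 (plus strand) for Cdkn1a, chr11:40755237-40755536 (minus strand) for Ccng1, chr10:117710709-117711008 (minus strand) for Mdm2 and chr7:45466849-45467148 (minus strand) for Bax. Capitals mark the decamers, and each window is written 5′ to 3′ on the strand of its gene.
Cdkn1a: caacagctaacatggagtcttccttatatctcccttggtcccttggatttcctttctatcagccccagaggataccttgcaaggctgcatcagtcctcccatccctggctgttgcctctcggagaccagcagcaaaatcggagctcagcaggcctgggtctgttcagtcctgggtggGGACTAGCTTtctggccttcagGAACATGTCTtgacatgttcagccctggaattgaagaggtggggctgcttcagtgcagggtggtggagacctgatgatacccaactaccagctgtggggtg
Ccng1: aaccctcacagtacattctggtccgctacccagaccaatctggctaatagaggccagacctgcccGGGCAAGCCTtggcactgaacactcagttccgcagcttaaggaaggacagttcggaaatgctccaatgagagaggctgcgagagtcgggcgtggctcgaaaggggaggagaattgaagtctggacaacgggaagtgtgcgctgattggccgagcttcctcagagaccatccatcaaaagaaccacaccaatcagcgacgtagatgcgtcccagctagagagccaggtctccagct
Mdm2: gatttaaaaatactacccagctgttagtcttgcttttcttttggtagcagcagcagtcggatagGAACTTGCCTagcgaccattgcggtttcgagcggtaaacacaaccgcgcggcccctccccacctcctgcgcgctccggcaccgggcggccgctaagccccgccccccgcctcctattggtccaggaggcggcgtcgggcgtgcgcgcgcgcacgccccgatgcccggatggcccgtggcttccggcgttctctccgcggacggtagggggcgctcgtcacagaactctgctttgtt
Bax: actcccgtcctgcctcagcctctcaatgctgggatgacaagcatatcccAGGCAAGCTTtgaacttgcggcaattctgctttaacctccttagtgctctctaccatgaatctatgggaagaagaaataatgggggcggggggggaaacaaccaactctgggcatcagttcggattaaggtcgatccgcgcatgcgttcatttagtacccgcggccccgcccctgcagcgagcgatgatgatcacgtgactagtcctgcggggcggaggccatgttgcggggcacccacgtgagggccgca
A single decamer began at -185 in Ccng1, at -186 in Mdm2 and at -201 in Bax. The Trp53 window also held 1, at -75. A match of letters is a description and does not show binding.

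Trp53 itself followed the lineage more than the sample. Its level was 77.5 CPM in embryoid PrE-like cells, 99.6 CPM in unnamed cells, 238 CPM in FIB-like cells and 272 CPM (235 to 313) in EPI-like cells. In the blastocyst it was 48.0 CPM in TE-like, 111 CPM in PrE-like and 359 CPM (336 to 382) in EPI-like cells. In each library EPI-like cells stood highest. In order of level, the EPI-like classes of both libraries came first and blastocyst TE-like cells last, and the embryoid EPI-like and FIB-like intervals overlapped. Trp53 was a little lower in the embryoid within each class, with a log2 ratio of embryoid over blastocyst (CPM + 1) of -0.51 (-0.67 to -0.37) in PrE-like cells and -0.40 (-0.63 to -0.18) in EPI-like cells. After each cell was thinned to 2000 UMIs, 14.4% of embryoid and 21.7% of blastocyst PrE-like cells held a Trp53 UMI.

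Mdm2, the ubiquitin ligase that degrades p53, was higher in each embryoid class than in each blastocyst class, although the FIB-like interval (88.0 to 160.2) reached that of blastocyst PrE-like cells (74.3 to 92.2). It stood at 202 CPM in PrE-like, 225 CPM in unnamed, 120.1 CPM in FIB-like and 122 CPM in EPI-like embryoid cells. The blastocyst values were 68.4 CPM in TE-like, 82.9 CPM in PrE-like and 65.2 CPM in EPI-like cells, and neighbouring intervals of these 3 classes overlapped. The log2 ratio of embryoid over blastocyst was 1.28 (1.13 to 1.45) in PrE-like and 0.90 (0.52 to 1.29) in EPI-like cells. Ccng1 encodes cyclin G1, which acts with a phosphatase on Mdm2 and is among the targets that p53 induces most regularly. It had 638 CPM in PrE-like, 792 CPM in unnamed, 475 CPM in FIB-like and 296 CPM in EPI-like embryoid cells. Blastocyst cells had 49.7 CPM in the TE-like, 56.4 CPM in the PrE-like and 48.1 CPM in the EPI-like class. The intervals of the 4 embryoid values were apart from each other, while those of the 3 blastocyst values overlapped. The Ccng1 log2 ratio was 3.48 (3.31 to 3.69) in PrE-like cells and 2.60 (2.30 to 2.95) in EPI-like cells.

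Cdkn1a, which encodes the cyclin-dependent kinase inhibitor p21, showed the largest difference of the 8 genes in PrE-like cells. Embryoid PrE-like cells had 442 CPM (433 to 451), unnamed cells 657 CPM, FIB-like cells 447 CPM and EPI-like cells 224 CPM (190 to 261). Blastocyst TE-like cells had 17.3 CPM (13.3 to 22.2), PrE-like cells 7.05 CPM (4.72 to 10.1) and EPI-like cells 32.6 CPM (26.1 to 40.2). No embryoid class overlapped a blastocyst class. The log2 ratio of embryoid over blastocyst was 5.78 (5.45 to 6.55) in PrE-like cells, which is 55.0-fold on the CPM + 1 scale, and 2.74 (2.39 to 3.17) in EPI-like cells. Of the cells thinned to 2000 UMIs, a Cdkn1a UMI was found in 51.6% (49.9 to 53.3) of 3489 embryoid and 1.46% (0.539 to 3.16) of 410 blastocyst PrE-like cells. The unthinned shares were 74.4% and 4.04%. No class here is known to lack Cdkn1a, so no background share of the gene itself can be given. Genes of other classes gave small shares at the same depth: 0.0573% of embryoid PrE-like cells held the epiblast gene Tdgf1, against 79.8% of EPI-like cells, and 1.10% of blastocyst TE-like cells held the endoderm gene Col4a1, against 96.3% of PrE-like cells. Both genes are far more abundant at their source than Cdkn1a in any blastocyst class, at 959.5 CPM for Tdgf1 and 2421 CPM for Col4a1, so their shares set no background for it. The blastocyst PrE-like level of Cdkn1a rests on 29 UMIs.

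Trp53inp1 and Phlda3 were also more than 2-fold higher in the embryoid in both shared classes. Trp53inp1, a stress-induced protein that promotes p53 activity and autophagy, had 207 CPM in PrE-like, 311 CPM in unnamed, 94.0 CPM in FIB-like and 135 CPM in EPI-like embryoid cells. Its blastocyst levels were 30.4 CPM in TE-like, 14.3 CPM in PrE-like and 50.0 CPM in EPI-like cells, so the lowest embryoid class was above the highest blastocyst class. The log2 ratio was 3.76 (3.48 to 4.25) in PrE-like and 1.41 (1.04 to 1.82) in EPI-like cells. Phlda3, a pleckstrin homology protein that restrains Akt, reached 59.997 CPM in embryoid PrE-like cells, 61.1 CPM in unnamed, 49.6 CPM in FIB-like and 36.1 CPM in EPI-like cells. It was at 8.93 CPM in TE-like, 5.84 CPM in PrE-like and 4.55 CPM in EPI-like blastocyst cells, the last from 12 UMIs. All 3 blastocyst intervals overlapped each other, so no order of lineages is read from them. The Phlda3 log2 ratios were 3.16 (2.78 to 4.01) in PrE-like and 2.74 (1.95 to 4.11) in EPI-like cells.

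Bax and Sesn2 moved least of the targets in PrE-like cells. Bax, which opens the outer mitochondrial membrane during apoptosis, had 264 CPM in PrE-like, 230.4 CPM in unnamed, 209 CPM in FIB-like and 372 CPM in EPI-like embryoid cells. The blastocyst values were 139.5 CPM in TE-like, 142 CPM in PrE-like and 305 CPM in EPI-like cells. EPI-like cells were therefore highest in both libraries, as for Trp53. The Bax log2 ratio of embryoid over blastocyst was 0.89 (0.77 to 1.02) in PrE-like and 0.28 (0.08 to 0.49) in EPI-like cells. Sesn2, a sestrin that restrains mTORC1 when leucine is scarce, had 93.3 CPM in PrE-like, 86.2 CPM in unnamed, 96.6 CPM in FIB-like and 114 CPM in EPI-like embryoid cells. It had 31.5 CPM in TE-like, 64.4 CPM in PrE-like and 37.5 CPM in EPI-like blastocyst cells. The 4 embryoid classes lay close together, and the Sesn2 log2 ratio was 0.53 (0.35 to 0.72) in PrE-like and 1.58 (1.16 to 2.04) in EPI-like cells. Sesn2 shares 6089 bases of the same strand with the annotated RNA Gm12981, and how reads of overlapping genes were assigned is not given in the sources used here.

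**Figure D1:**
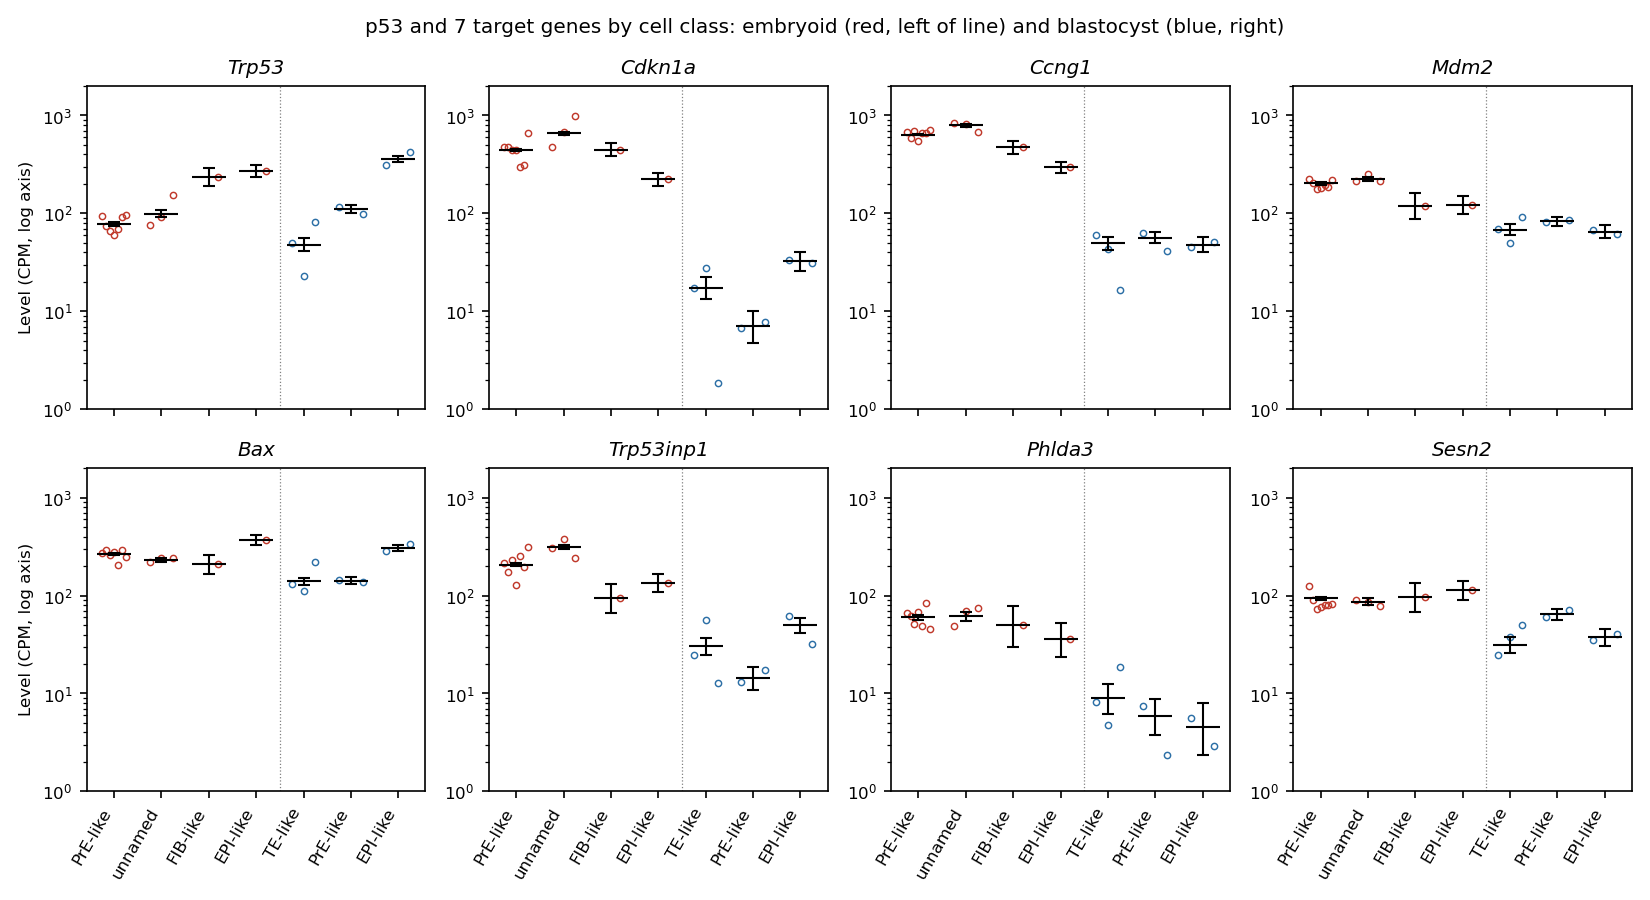
Level of each gene in CPM (log axis) in the embryoid classes (red, left of the dotted line) and the blastocyst classes (blue, right); bars are class levels with 95% Poisson intervals and open circles are single clusters. For Cdkn1a, Ccng1, Mdm2, Trp53inp1, Phlda3 and Sesn2 every embryoid circle is above every blastocyst circle, with counting error of circles not shown. Trp53 and Bax overlap and are high in EPI-like cells of both libraries.

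Counted together, 5 of the 8 genes (Cdkn1a, Ccng1, Mdm2, Trp53inp1, Phlda3) were at least 2-fold higher in embryoid than in blastocyst PrE-like cells, a size reached by 17.2% of the 9982 genes with a mean of at least 5 CPM, and 0 were at least 2-fold lower (11.5% of genes). The median log2 ratio of the 8 was 2.22, beside 0.06 over all genes tested. In EPI-like cells 5 genes (Cdkn1a, Ccng1, Trp53inp1, Phlda3, Sesn2) were at least 2-fold higher, beside 14.7% of genes, and 0 lower, beside 9.97%, with a median of 1.49 against 0.06. Mdm2 was past 2-fold in the first pair only and Sesn2 in the second only, and that difference was not tested. The plot of log2 ratios by class shows these values.

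**Figure D2:**
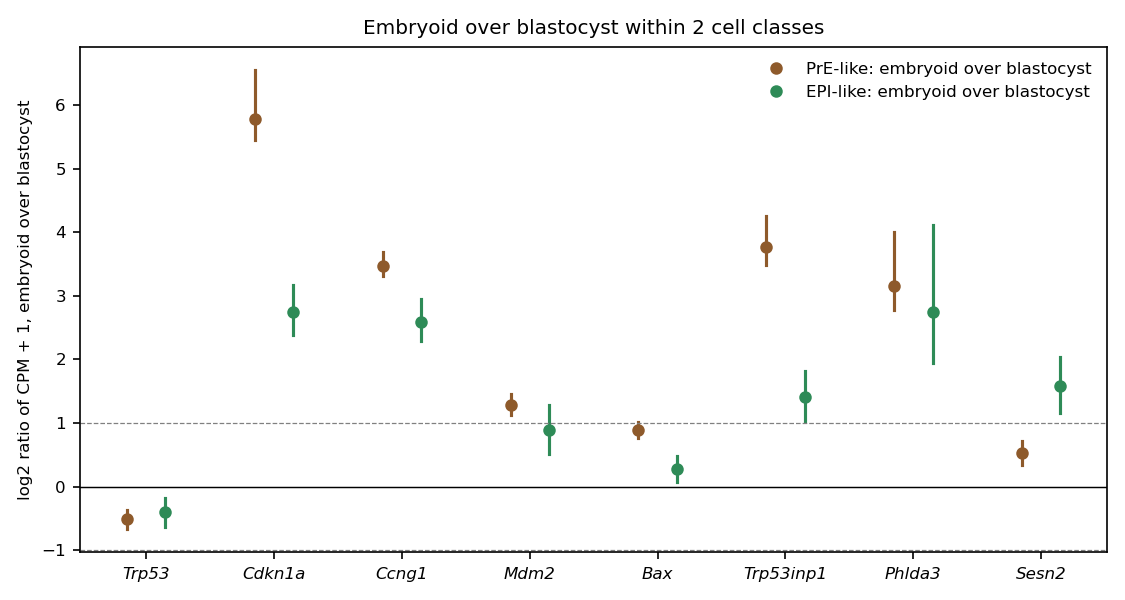
Log2 ratio of CPM + 1, embryoid over blastocyst, for PrE-like cells (brown) and EPI-like cells (green); points are the ratios, lines are 95% counting intervals of the ratio of CPM without the added 1, and dashed lines mark 2-fold. Trp53 lies below 0 in both classes and the 7 targets above it, with Cdkn1a at 5.78 in PrE-like and 2.74 in EPI-like cells.

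The clusters gave the same picture without class names. In all 12 embryoid clusters 6 of the 8 genes were higher than in all 7 blastocyst clusters, while 6.37% of 10432 genes were separated in that direction and 1.95% in the other. Cdkn1a ranged over 224 to 980.4 CPM in embryoid clusters and 1.84 to 33.5 CPM in blastocyst clusters. For Ccng1 the ranges were 296 to 829 CPM and 16.6 to 63.1 CPM. For Sesn2, the closest of the 6, they were 73.7 to 124 CPM and 24.9 to 72.0 CPM. The counting intervals of its nearest clusters, 63.6 to 84.9 and 58.0 to 88.3 CPM, overlapped, so counting error does not separate them. Those of the nearest clusters overlapped for Mdm2, Trp53inp1 and Phlda3 as well. Within the embryoid the highest Cdkn1a level was in the unnamed cluster led by Slpi, Fbln2 and Vim, and the lowest in the EPI-like cluster. The 7 PrE-like clusters spanned 297 CPM, in the cluster led by Cubn and Apoc2, to 663 CPM, in the one led by Nepn and Rbp4. Ccng1 varied less among them, over 550.2 to 715 CPM.

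Other measures differed between the libraries as well. The 12 genes of the dissociation stress list (Fos, Jun, Egr1 and other immediate early and heat shock genes) summed to 1655 to 11048 CPM over embryoid clusters and 538 to 1071 CPM over blastocyst clusters, which did not overlap. In PrE-like cells, where 17.2% of all genes were at least 2-fold higher in the embryoid and 11.5% lower, 10 of its 11 tested genes were higher and 1 was lower, with Jun at 1541 against 19.5 CPM and Hspa1b at 4.65 against 17.8 CPM. Of the hypoxia list, 8 of 9 tested genes were at least 2-fold higher and 0 lower, and the ranges of its sum overlapped, at 1240 to 3174 CPM in embryoid and 293 to 1950 CPM in blastocyst clusters. The median share of mitochondrial UMIs went the other way, at 6.54% in embryoid and 10.1% in blastocyst cells. Of the amino acid and ATF4 stress list, 1 of 8 tested genes was at least 2-fold higher and 4 were lower in PrE-like cells. Its embryoid and blastocyst sums were 736 and 1438 CPM in PrE-like cells, and 1511 and 1067 CPM in EPI-like cells. The part of these in the p53 target levels was not tested. Among the embryoid clusters the EPI-like one was lowest in both the stress sum (1655 CPM) and the sum of the 7 targets (1298 CPM). Of the PrE-like clusters the one led by Nepn was highest in both, at 9493 and 2284 CPM. The FIB-like cluster had the highest stress sum of all (11048 CPM) and the second-lowest target sum (1491 CPM). With 1 library per sample, the difference between embryoid and blastocyst cannot be told apart from one between libraries.

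Lineages of the blastocyst were compared within its library. PrE-like cells had 0 genes at least 2-fold higher than EPI-like cells (13.7% of genes) and 4 lower (10.7%). These were Trp53 at -1.68 (-1.86 to -1.53), Cdkn1a at -2.06 (-2.87 to -1.59), Trp53inp1 at -1.73 (-2.27 to -1.35) and Bax at -1.10 (-1.26 to -0.95). The epiblast gene Tdgf1 was seen in 7.07% of these PrE-like and 94.0% of the EPI-like cells thinned to 2000 UMIs, and its part was not tested. TE-like cells had 0 genes at least 2-fold higher than EPI-like cells (14.6% of genes) and 2 lower (23.3%), Trp53 at -2.88 (-3.15 to -2.67) and Bax at -1.12 (-1.29 to -0.97). The median of all genes in that comparison was -0.29, and with median-of-ratios scaling, which removes that shift, Bax was short of 2-fold at -0.83.

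In TE-like over PrE-like cells 2 of the 8 genes were at least 2-fold higher and 2 lower, and neither count held under all settings. The 2 lower ones are near the share over all genes. Cdkn1a at 1.18 (0.64 to 1.98) and Trp53inp1 at 1.03 (0.61 to 1.57) were at least 2-fold higher, where 11.1% of genes were. Trp53 at -1.19 (-1.47 to -0.96) and Sesn2 at -1.01 (-1.36 to -0.71) were at least 2-fold lower, where 21.3% of genes were and the median of all genes was -0.36. With median-of-ratios scaling, which removes that shift, both were short of 2-fold, at -0.83 for Trp53 and -0.65 for Sesn2. The Cdkn1a value was not stable: it was -0.90 when cells with over 10% mitochondrial UMIs were left out, and the 3 TE-like clusters ranged over 1.84 to 27.7 CPM, the lowest being the cluster led by Cald1, with 1 UMI. Both TE-like calls rest on few UMIs, 62 against 29 for Cdkn1a and 109 against 59 for Trp53inp1.

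Within the embryoid, PrE-like cells had 1 of the 8 genes at least 2-fold higher than EPI-like cells, Ccng1 at 1.11 (0.91 to 1.31), where 19.6% of genes were. Cdkn1a was just short of that size at 0.98 (0.76 to 1.22), and ranged over 0.67 to 1.07 under the other settings. Trp53 was the only one of the 8 at least 2-fold lower, at -1.80 (-2.03 to -1.59), where 13% of genes were. The stress list moved with this contrast too, at 6263 CPM in PrE-like and 1655 CPM in EPI-like cells, and its part was not tested.

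Further p53 targets, 41 genes listed by function, showed a mixed picture. In embryoid over blastocyst PrE-like cells 16 of the 32 tested were at least 2-fold higher, 3 were lower and 13 were neither, with a median log2 ratio of 0.89. Over all genes tested the shares were 17.2% higher and 11.5% lower and the median 0.06, so the 3 lower ones are no more than that share. Set against the same shares, 4 of 8 cell cycle targets were higher, led by Btg2, an antiproliferative factor, at 533 against 22.9 CPM (log2 ratio 4.48). Of the apoptosis targets 5 of 7 were higher, among them Bbc3, which encodes the death activator Puma, at 42.6 against 5.35 CPM (2.78). Eda2r, a death receptor of the tumour necrosis factor family, was at 61.9 against 3.65 CPM (3.76) and Polk, a lesion-bypass DNA polymerase, at 98.4 against 10.5 CPM (3.12). The metabolic targets were split, with 3 of 7 higher and 2 lower. The lowest ratios were those of 9630033F20Rik, an older symbol of the glycolysis regulator Tigar, at 18.9 against 123 CPM (-2.63), of Sfn, the 14-3-3 sigma arrest factor, at 1.87 against 14.1 CPM (-2.40), and of Gdf15, a secreted stress factor, at 3.64 against 10.2 CPM (-1.27).

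**Figure D3:**
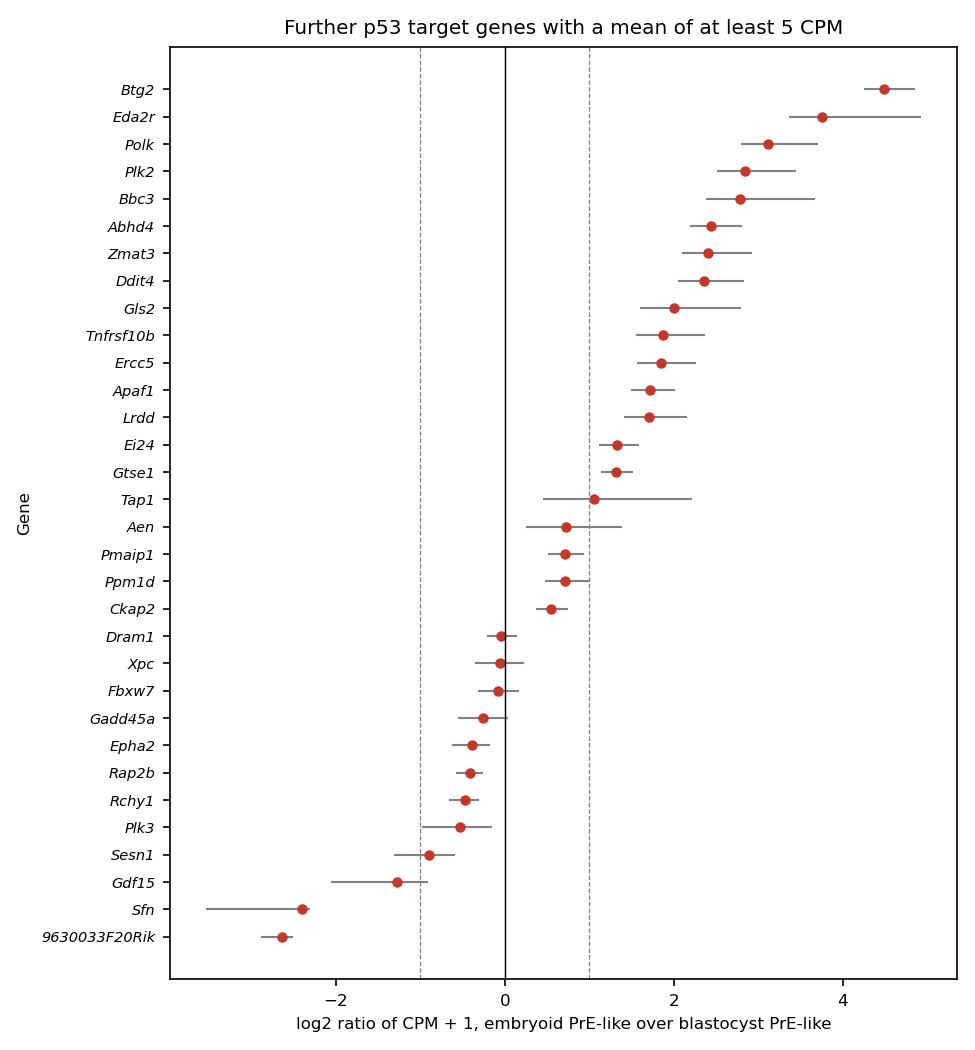
Log2 ratio of CPM + 1 of embryoid over blastocyst PrE-like cells for the 32 further p53 target genes tested, sorted; lines are 95% counting intervals of the ratio of CPM without the added 1, which is why points of low genes lie near one end. The upper 16 genes are past the dashed 2-fold line, from Tap1 at 1.05 to Btg2 at 4.48, and 3 are past it on the lower side.

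In EPI-like cells 14 of 33 further targets were at least 2-fold higher in the embryoid and 3 lower, with a median of 0.82, where 14.7% of all genes were higher and 9.97% lower. Btg2 was at 109.7 against 7.58 CPM, Eda2r at 47.2 against 3.03 CPM and Plk2, a polo-like kinase, at 38.9 against 3.41 CPM. Sfn at 22.2 against 52.3 CPM, the adenylate kinase Ak1 at 27.8 against 61.8 CPM and Gdf15 at 4.17 against 9.47 CPM were the 3 lower ones, a number near the share over all genes. Gdf15 rests on 3 embryoid UMIs, and the interval of its log2 ratio, -3.56 to 0.53, holds 0.

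Among genes that control p53, Cdkn2a stood out. This locus encodes p16 and, in another reading frame, Arf, the protein that blocks Mdm2, and the counts do not separate their transcripts. Cdkn2a had 107 CPM in PrE-like, 126 CPM in unnamed, 54.8 CPM in FIB-like and 50.0 CPM in EPI-like embryoid cells. It had 1.12 CPM in TE-like, 1.46 CPM in PrE-like and 2.27 CPM in EPI-like blastocyst cells, from 4, 6 and 6 UMIs. The log2 ratio was 5.46 (5.07 to 7.65) in PrE-like and 3.96 (3.20 to 5.997) in EPI-like cells. Of the 9 regulators tested in PrE-like cells, Chek2, a damage checkpoint kinase, was also at least 2-fold higher at 34.4 against 16.05 CPM. Atm, the kinase that senses double-strand breaks, was at least 2-fold lower at 16.3 against 34.5 CPM. Over all genes tested 17.2% were higher and 11.5% lower, so 2 higher and 1 lower of 9 are near those shares. The other 6, including the Mdm2 partner Mdm4 at 17.1 against 16.8 CPM, were neither.

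The genes that p53 lowers through p21 and the DREAM repressor complex, such as Ccnb1 and Top2a, had few members past 2-fold between the libraries. Of 13 tested, 0 were at least 2-fold higher and 0 lower in embryoid over blastocyst PrE-like cells, where 17.2% of all genes were higher and 11.5% lower, and their sum was 2832 CPM against 3125 CPM. In EPI-like cells 1 was higher, Plk1 at 1.01, and 0 lower, where 14.7% and 9.97% of genes were, with a median of 0.57 and sums of 3699 against 2817 CPM. Of 13 S phase genes 0 were higher and 3 lower in PrE-like cells, with sums of 1496 against 2300.3 CPM, and 0 were past 2-fold in EPI-like cells, with sums of 2912 against 3294 CPM.

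The targets were also added up per cell. In cells thinned to 2000 UMIs, the 7 targets gave a mean of 3.83 UMIs in embryoid PrE-like, 2.90 in FIB-like and 2.88 in EPI-like cells. The blastocyst means were 0.722 in TE-like, 0.710 in PrE-like and 1.10 in EPI-like cells. Cells without any target UMI made up 5.56% of embryoid PrE-like cells and 51.2% of blastocyst PrE-like cells. As the distribution of the sum shows, most embryoid PrE-like cells held 1 to 7 target UMIs, and 3.27% had 10 or more.

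**Figure D4:**
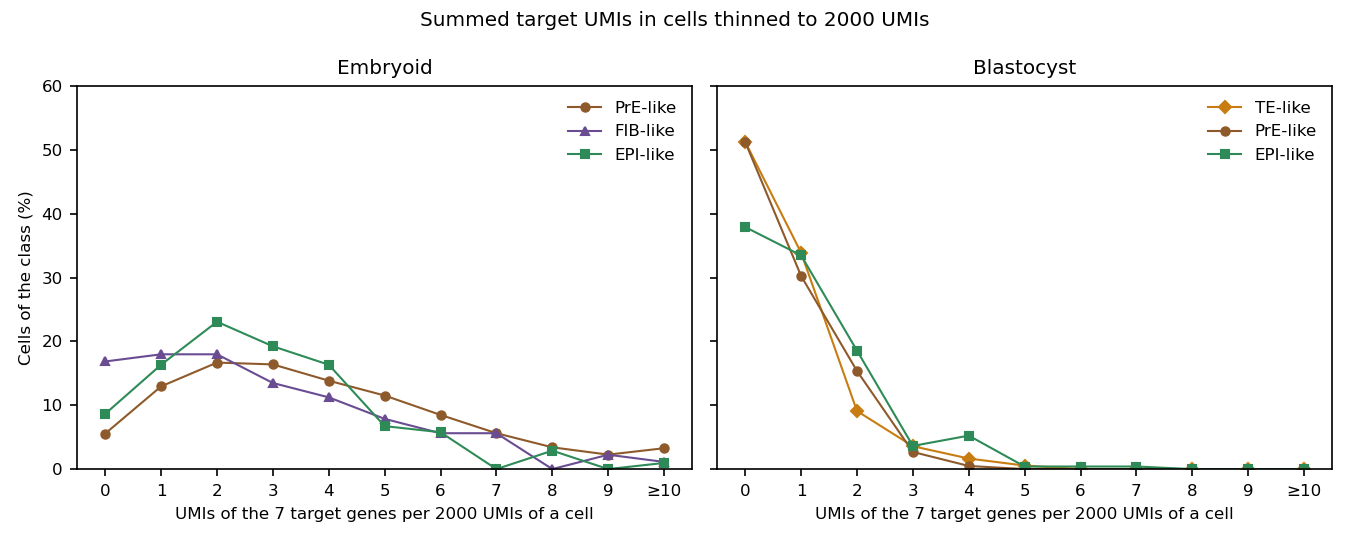
Percent of cells (y) by the summed UMIs of the 7 targets per 2000 UMIs (x) in embryoid classes (left) and blastocyst classes (right). The embryoid PrE-like curve peaks at 2 UMIs (16.7% of cells), and the blastocyst curves are highest at 0, at 51.2% for TE-like and PrE-like and 37.9% for EPI-like cells.

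Correlations across cells were computed within a class, on thinned counts, and describe cells that share 1 library. Across 3489 embryoid PrE-like cells the Spearman correlation of Cdkn1a with Ccng1 was 0.18, and each ranked first among 6091 genes for the other. Ccng1 with Trp53inp1 had 0.15, Ccng1 with Mdm2 0.11, Cdkn1a with Trp53inp1 0.11 and Cdkn1a with Mdm2 0.10. These values are small in counts this sparse. The highest-ranked gene for Mdm2 and for Trp53inp1 was Ccng1 in each case. Bax and Sesn2 stayed near 0 with most targets, and the median of all 21 target pairs was 0.024. Trp53 with each target ranged over 0.0051 to 0.031, all near 0. The correlation of Cdkn1a with Ccng1 was above 0 within each of the 7 PrE-like clusters, at 0.109 to 0.276. In the smaller embryoid classes it was -0.012 across 104 EPI-like cells and 0.39 across 89 FIB-like cells. Over the 21 target pairs the median was 0.029 in EPI-like and 0.037 in FIB-like cells, with 14 and 13 pairs above 0. Single pairs there went as low as -0.25 and -0.19.

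In the blastocyst the targets were sparser and the cells fewer. The median over the 21 target pairs was 0.023 in 363 TE-like, 0.0063 in 410 PrE-like and 0.016 in 248 EPI-like cells, with 12, 11 and 12 pairs above 0. Cdkn1a with Ccng1 had 0.098 in TE-like, 0.083 in PrE-like and 0.15 in EPI-like cells. In the same order only 16, 6 and 14 of the thinned cells held a Cdkn1a UMI. Bax with Trp53 had the highest correlation of the Trp53 pairs in TE-like cells, 0.19 over 363 cells, and in EPI-like cells, 0.17 over 248 cells. Within single clusters it was 0.0991 to 0.302 in the 3 TE-like and 0.117 and 0.267 in the 2 EPI-like clusters. PrE-like cells did not share it: Bax with Trp53 had -0.017 over 410 cells, and -0.026 and 0.0043 in the 2 PrE-like clusters. In TE-like cells Trp53 had values of like size with the S phase genes (0.215) and the DREAM genes (0.200).

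**Figure D5:**
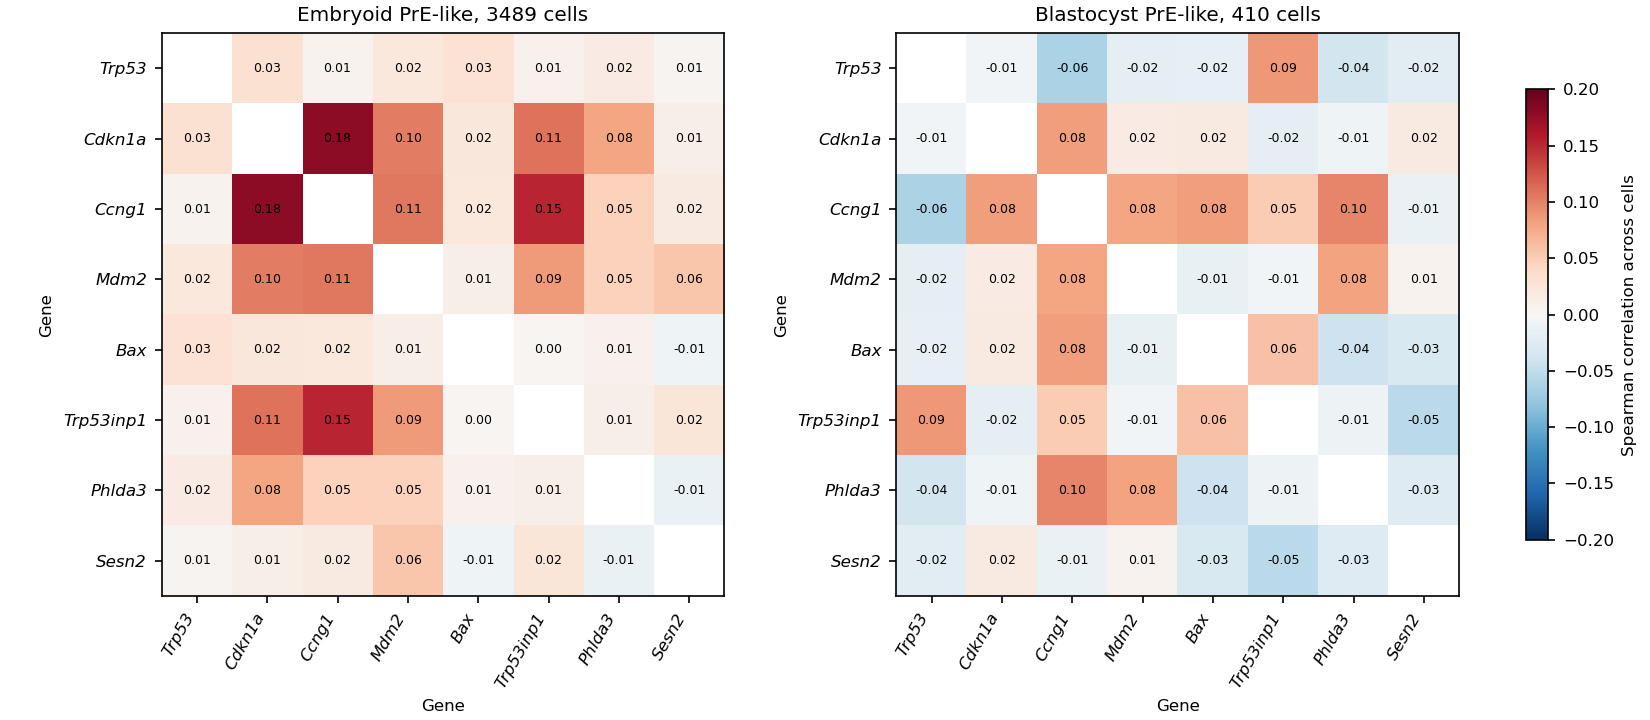
Spearman correlation between each pair of the 8 genes across thinned embryoid PrE-like cells (left, 3489 cells) and blastocyst PrE-like cells (right, 410 cells), colour from -0.20 to 0.20. In the left panel a block of Cdkn1a, Ccng1, Mdm2 and Trp53inp1 holds values of 0.086 to 0.18, and the Trp53 row stays at or below 0.031. In the right panel the pairs of that block lie between -0.02 and 0.08, and the Trp53 row ranges over -0.063 to 0.086. Only 6 of the 410 cells held a Cdkn1a UMI and 9 a Trp53inp1 UMI, too few to show whether the block is there.

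Grouping embryoid PrE-like cells by their own Cdkn1a count restates the relation as levels. It uses the same thinned counts as the correlations and adds no separate support. Cells with 0 Cdkn1a UMIs (1688 cells) had a mean of 1.06 Ccng1 UMIs, cells with 1 (993 cells) had 1.38, and cells with 2 or more (808 cells) had 1.58. Mdm2 had 0.352, 0.432 and 0.548 UMIs in the same order, and Trp53inp1 0.355, 0.424 and 0.535. The DREAM genes had 5.31, 5.29 and 5.19 UMIs. Increases were not limited to targets. Trp53 had 0.146, 0.154 and 0.184 UMIs, the S phase genes 2.83, 2.92 and 3.14, and the hypoxia list 4.90, 5.07 and 5.21. The amino acid and ATF4 stress list had 1.51, 1.33 and 1.34. The dissociation stress list increased with Cdkn1a too, at 11.1, 13.1 and 15.0 UMIs, and its part was not tested.

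The genes most like the sum of the 7 targets across these cells, among 6084 others, were Btg2 (Spearman correlation 0.19), Psrc1 (0.18), Plk2 (0.17), Slc19a2, Gpx3, Jun, Gtse1, Cd81, Aaas and Egr1 (0.13). Of these, Btg2, Plk2 and Gtse1 were on the list of further p53 targets, and Jun and Egr1 on the dissociation stress list. The lowest were Srgn (-0.099), Lamc1, Tnfrsf21, Ncl, F3, Cyp26a1, Actb, Pga5, Pdgfra and Lama1 (-0.081), of which Srgn, Pdgfra and Lama1 are primitive endoderm markers. The target sum had a Spearman correlation of 0.36 with the sum of all further p53 targets, 0.15 with dissociation stress, 0.015 with the DREAM genes, 0.0098 with hypoxia, 0.0024 with the mitochondrial share and 0.015 with the depth of the cell before thinning. In blastocyst PrE-like cells its correlation with the further targets was 0.10.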

How the data were processed

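The data are single-cell RNA sequencing of 2 mouse samples, 1 library each, made with the BD Rhapsody whole transcriptome kit per the labels. The authors deposited raw UMI counts per gene symbol and cell barcode. The submitters' processing notes name STAR 2.7.1a and build mm10, with featureCounts 1.6.4 (Subread), UMI-tools 1.0.1 and bcl2fastq 2.19.1.403. Annotation, strand setting and cell calling: not given in the sources used here. Totals were 28923930 UMIs over 5546 embryoid barcodes and 11047555 UMIs over 1288 blastocyst barcodes.

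The genes, the gene lists and the rules were chosen with earlier results of these data known. Barcodes with at least 1000 UMIs, at least 500 genes and at most 25% mitochondrial UMIs were kept. Scrublet (scanpy 1.11.5) called 0 embryoid doublets, so the caller did not work there, and 18 blastocyst doublets, which were removed. Each library was clustered alone (Leiden, leidenalg 0.10.2, resolution 1.0, 2000 variable genes, 30 components, 20 neighbours). Clusters were named from 83 matched markers of 8 classes. A marker was high at 20 CPM or more and 0.333 of its highest cluster level, and a name needed 5 high markers, a minimum set after seeing the data. UMIs were summed per class, ratios used 1 added CPM, and genes with a mean of at least 5 CPM were tested against a 2-fold size. Intervals are exact Poisson, Clopper-Pearson or binomial at 95%. Per-cell measures used cells thinned to 2000 UMIs, which left out 255 embryoid and 36 blastocyst PrE-like cells, and genes seen in at least 5% of cells. Named were all 8 genes, the 3 highest and 3 lowest of each list, and the 10 most and least like the target sum. Others were picked after their values were seen. The calculation was tested on simulated data. Python 3.11.15, numpy 2.4.6, scipy 1.17.1 and pandas 2.3.3 were used, and the closing section gives the alternatives.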

Additional observations from a re-analysis of the deposited data

Results flagged for a closer look

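Cdkn1a differed between PrE-like and EPI-like cells in opposite directions in the 2 libraries. In the embryoid it was 442 CPM in PrE-like and 224 CPM in EPI-like cells, a log2 ratio of 0.98. In the blastocyst it was 7.05 CPM in PrE-like and 32.6 CPM in EPI-like cells, a log2 ratio of -2.06, so the embryoid ratio minus the blastocyst ratio was 3.04. The blastocyst levels rest on 29 UMIs in PrE-like and 86 UMIs in EPI-like cells. Trp53inp1 did likewise, with 207 CPM in PrE-like and 135 CPM in EPI-like embryoid cells (0.62) and 14.3 CPM in PrE-like and 50.0 CPM in EPI-like blastocyst cells (-1.73), a difference of 2.35. Neither difference was tested, since each library is 1 sample. Over all settings tried, the Cdkn1a ratios stayed at 0.67 to 1.07 in the embryoid and -2.33 to -1.32 in the blastocyst, and those of Trp53inp1 at 0.57 to 0.82 and -1.79 to -1.21. Trp53 did not share the pattern, with -1.80 in the embryoid and -1.68 in the blastocyst.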

How the results depend on the processing

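Under 14 settings 592 ratios were recomputed. Of these, 561 moved by at most 0.5 of the width of their counting interval, 29 moved further and 2 reversed. The 561 include 48 ratios from the setting that tested genes with a mean of at least 1 CPM. Those could not move, because that setting changes only which genes are tested. The counts of 5 genes at least 2-fold higher and 0 lower in the embryoid came out as 5 and 0 under every setting run, for PrE-like and EPI-like cells. The TE-like over PrE-like counts, 2 higher and 2 lower, were the least stable. The higher count was 0 with 10 CPM added, 0 with at most 10% mitochondrial UMIs, and 1 with doublets kept, with classes set per cell or with mean CPM of single cells. The lower count was 1 with 10 CPM added or at least 3000 UMIs per cell, and 0 with median-of-ratios scaling or at most 10% mitochondrial UMIs. There Mdm2 reversed to 0.088 under median-of-ratios scaling and Cdkn1a to -0.90 under the mitochondrial limit. TE-like over EPI-like had 1 higher and 1 lower under median-of-ratios scaling and 1 higher under the mitochondrial limit, where blastocyst PrE-like over EPI-like also had 1 higher. Embryoid PrE-like over EPI-like had 2 higher at 3000 UMIs, at resolutions 0.5 and 2.0, with mean CPM and with seed 2, the last added after seeing the data. The Spearman correlation of Cdkn1a with Ccng1 was 0.302 without thinning, and the median over target pairs 0.0657 at 4000 UMIs (2444 cells) and 0.0963 without thinning. In these last 3 the UMIs per cell and the set of cells both differ from the main setting. Without thinning, the counts were also scaled to the depth of each cell. The part of each was not tested. Adding the 2 unnamed clusters with trophectoderm markers among their leading genes (1037 cells) to the PrE-like class, also chosen afterwards, kept the counts. No paired analysis was possible because each sample is 1 library. Depth limits Cdkn1a, Phlda3 and Cdkn2a most, at 29, 24 and 6 UMIs in blastocyst PrE-like cells.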

Other observations

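Some further p53 targets were marks of a lineage in the blastocyst. Perp, a desmosome protein, had 223 CPM in TE-like, 3.16 CPM in PrE-like and 3.41 CPM in EPI-like cells, and Sfn had 251 CPM, 14.1 CPM and 52.3 CPM in the same order. Dram1, a lysosomal autophagy factor, had 1.95 CPM in TE-like, 76.6 CPM in PrE-like and 1.89 CPM in EPI-like cells. Embryoid PrE-like cells had 6.47 CPM of Perp, 1.87 CPM of Sfn and 74.5 CPM of Dram1.

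Cell cycle genes spanned a wider range over embryoid clusters than the targets. The summed DREAM genes ranged over 334 to 4145 CPM among the 12 clusters and the 7 targets over 1298 to 2530.4 CPM. The clustering left out both sets but not other mitosis genes such as Kif23 and Hmmr, and their part in the wider range was not tested. The 2 ends of the DREAM range were the unnamed cluster led by Lgals3, with a target sum of 2530.4 CPM, and the PrE-like cluster led by Chac1 and Ccnb1, with 2047 CPM. Sesn2 had its highest Spearman correlation across embryoid PrE-like cells, among the lists, with the amino acid stress genes (0.14 over 3489 cells), whereas Cdkn1a had -0.049 with them.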
